A study of Homo sapiens with 2 samples.

Results

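ACLY, ACACA and SCD encode enzymes that supply acetyl-CoA for fatty acid synthesis, commit it to that pathway and desaturate the product. RNA bound by the translation initiation factor eIF4A1 carried 9 peaks listed under these 3 genes, of 1919 annotated peaks in all. The 9 were taken by the Entrez gene ID in the authors' annotation, which named ACACA for 4 peaks, ACLY for 3 and SCD for 2. The genes were chosen by their eIF4A1 peaks in these same data (peak number and fold), so the values below describe them and carry no test.

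The RNA came from DU145, an established human prostate cancer cell line. A pre-cleared cytoplasmic lysate was shared out to an anti-eIF4A1 rabbit antibody and to rabbit IgG as the control, and RNA immunoprecipitation followed by sequencing (RIP-seq) gave 1 library per antibody. The 2 groups share cell line and lysate and differ only in the antibody. No agent or genetic change is given for either, and no peak below has a replicate error.

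eIF4A1 is the DEAD-box helicase of the eIF4F complex, and it unwinds structure in mRNA leaders so that the small ribosomal subunit can scan. Fatty acid synthesis from glucose begins when citrate leaves the mitochondrion. ATP citrate lyase (ACLY) splits cytosolic citrate into acetyl-CoA and oxaloacetate. Acetyl-CoA carboxylase 1 (ACACA) carboxylates acetyl-CoA to malonyl-CoA, the committed step, and fatty acid synthase (FASN) builds palmitate from both. Stearoyl-CoA desaturase (SCD), a membrane enzyme of the endoplasmic reticulum, then puts a double bond into palmitoyl- and stearoyl-CoA. The 3 genes are known targets of the sterol regulatory element-binding proteins (SREBPs), which act at lipogenic promoters together with NF-Y, the factor that binds CCAAT boxes. Many prostate tumours are known for high fatty acid synthesis.

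Sequence was at hand only for the start windows of the genes (250 bases before to 50 after each RefSeq start, GRCh38.p14), because no genome was used here, so the bases under the peaks are not printed. CCAAT boxes are shown since each of the 3 genes has at least 1, within 250 bases before a listed start. The 2 boxes before the third listed ACACA start are not printed. Each stretch has 30 bases, is written 5′ to 3′ on the strand of the gene, and has the box in capitals (ATTGG is CCAAT on the other strand).
ACLY, chr17:41919070-41919099, minus strand, 65 to 61 bases before the first listed start: agccagcagcgaATTGGgaggagccctggc
ACLY, chr17:41919028-41919057, minus strand, 23 to 19 bases before the same start: gaacgcgtgtggCCAATcgcggggccgttc
ACACA, chr17:37359305-37359334, minus strand, 226 to 222 bases before the second listed start: cgccgccctcccATTGGctgccgctgagcc
SCD, chr10:100346992-100347021, plus strand, 229 to 225 bases before its start: gattgcgccgagCCAATggcaacggcagga
SCD, chr10:100347035-100347064, plus strand, 186 to 182 bases before its start: aattcccttcggCCAATgacgagccggagt

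The letters CCAAT, searched on both strands, were found in 34.7% of 22199 start windows of protein-coding genes, so a match is common. Both ACLY starts and the single SCD start had 2 matches each, and the 3 ACACA starts had 0, 1 and 2. The 2 ACLY windows overlap and hold the same 2 boxes. The GC box GGGCGG, on both strands, was present in 56.3% of windows. It occurred 4 times at each ACLY start, at the same 4 sites. It occurred 6, 7 and 0 times at the ACACA starts, and 2 times at the SCD start. The SREBP core TCACNCCAC (1.13% of windows) and the E-box CACGTG (8.34%), both searched on both strands, had 0 matches in these 6 windows, which says only that the letters are not there. Leaders rich in GGC are a known feature of eIF4A1-dependent mRNAs. The letters GGCGGC on the transcript strand, present in the first 50 transcribed bases of 11.5% of windows, had 0 matches in all 6. The GC share of those 50 bases was 72% and 66% at the ACLY starts, 86%, 74% and 54% at the ACACA starts and 58% at the SCD start, against a median of 64% over all windows. The first ACACA start was richer in GC than 98.3% of windows, while the SCD start was richer than 30.4%. No peak of the 3 genes lies in a start window. The nearest is the first SCD peak, with its summit 283 bases downstream of the start.

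Having a peak was uncommon: by the same assignment, 6.84% of 20037 protein-coding genes had at least 1 peak outside the intergenic class, 0.988% had 2 or more, 0.235% had 3 or more and 0.0549% had 4 or more. SCD is therefore among 198 genes with 2 or more peaks, ACLY among 47 with 3 or more and ACACA among 11 with 4 or more. The 3 genes were chosen for this, so nothing is read from it. The folds are the authors' own, on a linear scale, as eIF4A1 over a control that the sources used here do not name. Reads at the summit and the background behind a fold were solved from the deposited values, and the intervals are exact Poisson intervals (95%) that cover counting error only.

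ACLY had the deepest peak of the group. Its peak with the highest fold, chromosome 17, 41898651 to 41898671 (hg38), had a fold of 8.51 and a −log10 q of 8.02. There 15 eIF4A1 reads (interval 8.40 to 24.7) stood over a background worth 1 control read. Among all 1920 peaks, 9 had 15 or more reads and 13 had a fold at least as high. The plain ratio of 15 reads to that scaled control read was 17.1, with a counting interval of 2.62 to 718. That interval takes the background as a single read at the summit, which leaves the ratio poorly fixed. The background is the highest of several windows, and it also allows up to 50 control reads within 1 kb.

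The second ACLY peak (chromosome 17, 41893075 to 41893130) held fewer reads but had the lower background. It had a fold of 7.86 on 7 reads (interval 2.81 to 14.4), with 0 control reads at the summit and at most 1 within 1 kb. Its −log10 q of 11.2 was the highest of the 9 and was reached by 14 peaks in all. Against the upper limit that 0 control reads allow (3 reads), its 7 reads, taken as exact, were 2.65-fold higher. This bounds the control count only and leaves out the counting error of the 7 reads. The third ACLY peak (chromosome 17, 41886127 to 41886173) had a fold of 5.51 on 5 reads, with at most 5 control reads within 1 kb.

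All 3 ACLY peaks were annotated as exonic, in exons 12, 15 and 18 of 29 of the same Ensembl transcript. Their summits span 12.5 kb in the middle of the gene (RefSeq span chromosome 17, 41866917 to 41930545, minus strand), at 50.1%, 58.9% and 69.7% of the span from its 5′ end. The nearer of the listed ACLY starts lies 20.3 kb upstream of the nearest of these summits. The reads at the summit were 15, 7 and 5 in that 5′ to 3′ order, and the 3 intervals overlap one another. The long noncoding RNA LOC124904005 lies inside ACLY, and 0 of the 3 summits fall in it.

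ACACA had more peaks than ACLY, and each was shallow. The reads at the 4 summits were 3, 2, 5 and 4 from the 5′ to the 3′ end, with 0 control reads at each summit. The highest fold was 5.90 with a −log10 q of 7.06 (chromosome 17, 37113097 to 37113233), on 5 reads (interval 1.62 to 11.7). This peak was also the widest of the 9, at 137 bases, against a median of 27 bases over all peaks. The next (chromosome 17, 37097006 to 37097087) had a fold of 4.83 on 4 reads.

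The other two ACACA peaks are of kinds found many times in the data. The peak at chromosome 17, 37181241 to 37181269, in exon 40 of 56, had a fold of 3.93 on 3 reads, and 277 peaks have exactly its fold and p. The peak at chromosome 17, 37121355 to 37121451, had a fold of 2.95 on 2 reads and a −log10 q of 1.54, and 64 peaks had a lower −log10 q. Against the same scaled limit of 3 control reads, the 3 reads of the first, taken as exact, were 1.14-fold higher. Their own counting interval (0.619 to 8.77) reaches under that limit, so they are not set above the control. The 2 reads of the second lay under the limit, so no ratio is given there. The ACLY and ACACA peaks of 5 reads have intervals from 1.62, and the ACACA and SCD peaks of 4 reads from 1.09. Those intervals also reach under the limit, so these peaks are not set above the control either.

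The ACACA peaks lie toward the 3′ end of a long gene (chromosome 17, 37084992 to 37406836, minus strand, 322 kb). The summits stood at 70.1%, 88.7%, 91.3% and 96.3% of the span from the 5′ end. The authors' classes place 1 of them in an exon, 2 in the 3′ UTR and 1 in the promoter class, 1 to 2 kb from a transcript start. That promoter-class summit is 285 kb downstream of the 5′ end of the whole gene and is set against an internal transcript. The summit with 5 reads, called 3′ UTR, lies 28.1 kb upstream of the gene's 3′ end. The pseudogenes RPS2P49, HMGB1P24 and RPL18AP12, the snoRNA gene SNORA90 and the gene C17orf78 overlap ACACA, and 0 of the 4 summits fall in any of them.

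**Figure D1:**
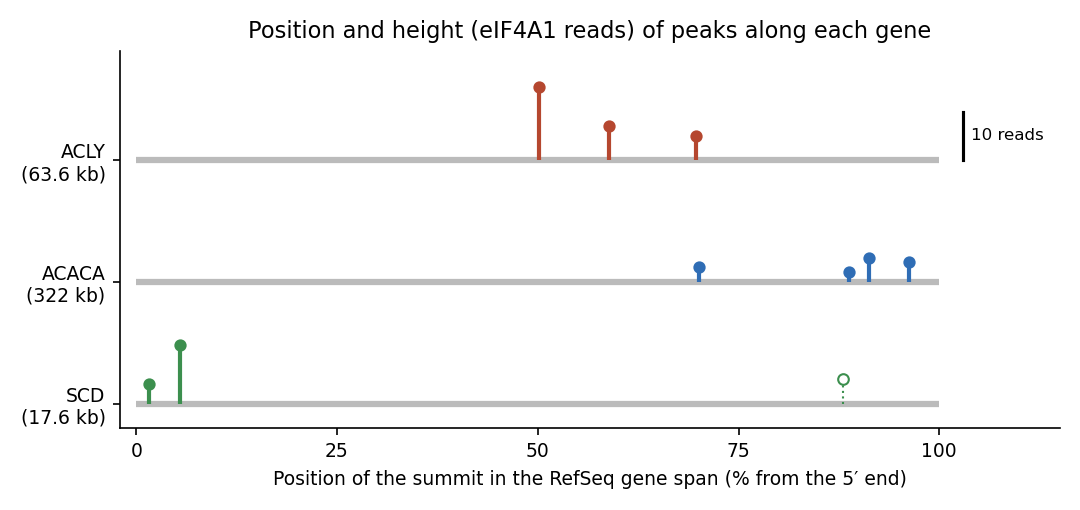
Summits along the RefSeq span of each gene (x axis, percent of the span from the 5′ end), with stem height giving eIF4A1 reads (scale bar, 10 reads). ACLY peaks lie between 50.1% and 69.7% of the span, ACACA peaks between 70.1% and 96.3%, and the SCD peaks at 1.61% and 5.50%. The open circle is the peak inside SCD that the authors listed under OLMALINC.

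SCD had 2 peaks close together near its 5′ end, with more control signal than at most peaks of the other two genes. The larger (chromosome 10, 100348189 to 100348285) held 12 eIF4A1 reads (interval 6.20 to 21.0), a depth that 34 of the 1920 peaks reached. Its background was worth 2 control reads at the summit, so its fold was 4.71 and its −log10 q 2.61. The ratio of 12 reads to the scaled control was 6.82, with a counting interval of 1.52 to 62.8. That interval takes the background as 2 reads at the summit, and it also allows up to 100 control reads within 1 kb. The smaller (chromosome 10, 100347471 to 100347518) had a fold of 4.75 on 4 reads (interval 1.09 to 10.2), with at most 3 control reads within 1 kb. The folds of the pair are almost equal although the reads differ, because the background differs.

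Both SCD summits are in the promoter class, 283 and 967 bases downstream of the start and 684 bases apart, in a gene of 17.6 kb (chromosome 10, 100347233 to 100364826, plus strand). No other RefSeq gene overlaps SCD. Another peak lies inside SCD but is listed under the long noncoding RNA OLMALINC, so the gene ID does not find it. It stands at chromosome 10, 100362719 to 100362753, 2.11 kb from the 3′ end of SCD and 10.9 kb before the RefSeq start of OLMALINC, and is called 3′ UTR. It had a fold of 4.56, a −log10 q of 1.54 and 5 reads (interval 1.62 to 11.7) over a background that allows at most 18 control reads within 1 kb. By gene body SCD therefore had 3 peaks, at both ends of the gene. A further OLMALINC peak, with a fold of 6.91 on 7 reads, lies 23.5 kb beyond SCD. The files give no strand for a peak, so sense and antisense RNA cannot be told apart at any of these sites.

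**Figure D2:**
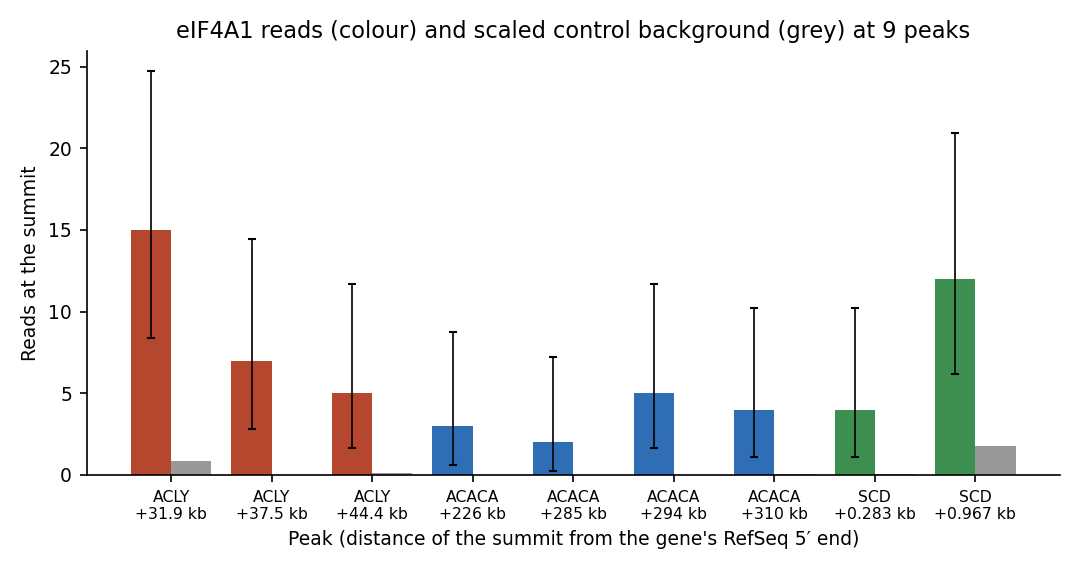
eIF4A1 reads at each summit (coloured bars, with exact 95% Poisson intervals) and the scaled control background (grey bars) at the 9 peaks, named by gene and by distance from the RefSeq 5′ end. The tallest bars are the ACLY peak of 15 reads and the SCD peak of 12 reads, and only these have a background worth 1 control read or more.

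Set in order of reads, the 9 peaks ran 15 (ACLY), 12 (SCD), 7 (ACLY), 5 (ACLY), 5 (ACACA), 4 (ACACA), 4 (SCD), 3 (ACACA) and 2 (ACACA). Neighbours in this order did not differ beyond counting error. The intervals of the first and the last were the only pair without overlap (lower bound 8.40 against upper bound 7.22). The summed reads at the summits were 27 for ACLY, 16 for SCD and 14 for ACACA, over 124, 145 and 345 bases of peak. Per 10 kb of gene span, SCD had 1.14 peaks, ACLY 0.471 and ACACA 0.124. The median over the 1370 protein-coding genes with a peak was 0.300 peaks per 10 kb, with quartiles of 0.118 and 0.783. ACACA thus had the most peaks of the 3 and the fewest per 10 kb of gene span. The span includes introns, and 0 of the 9 peaks were in the intron class. These values are therefore not densities along the RNA. In bulk lysate, more bound RNA and a more abundant transcript cannot be told apart here.

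Over the 9 peaks the median fold was 4.83 (range 2.95 to 8.51), beside a median of 3.99 over all 1920 peaks. At least 10 reads stood at 2 of the 9 peaks, beside 4.58% of all peaks, and at least 5 reads at 5 of the 9, beside 26.7%. The same 2 deepest peaks were the ones with a background worth at least 1 control read, found at 5.89% of all peaks. At SCD and at the deepest ACLY peak the control therefore held reads too, and its part in their folds was not tested. The authors' classes of the 9 peaks were exon for 4, promoter for 3 (33.3%, exact Clopper-Pearson interval 7.49 to 70.1) and 3′ UTR for 2. Over all 1919 annotated peaks 57.3% were in the promoter class, 20.0% in exons and 12.7% in 3′ UTRs. The intervals of 9 peaks are too wide to separate these shares. They also treat the peaks as independent, although peaks of 1 gene share their source and both SCD peaks are in the promoter class.

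**Figure D3:**
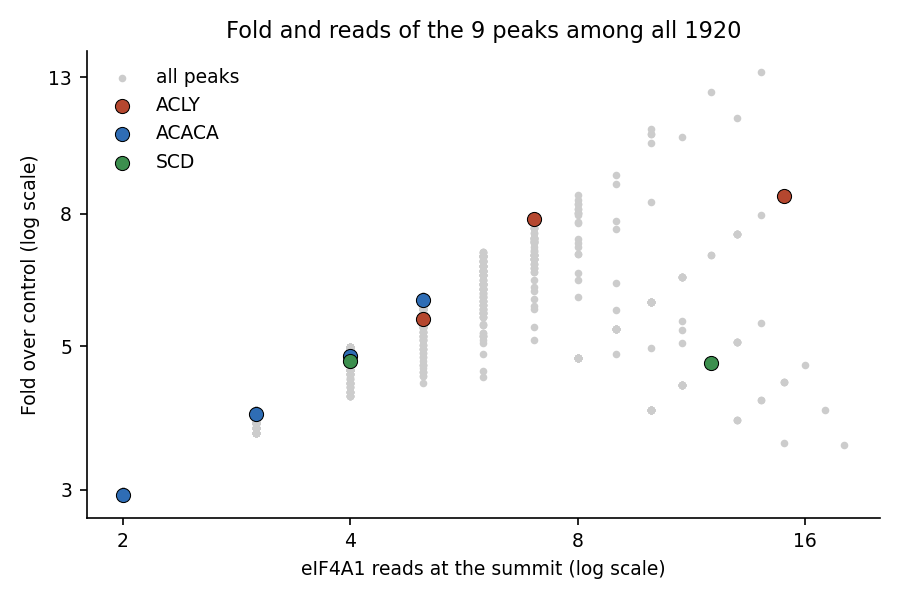
Fold over control against eIF4A1 reads at the summit, both on log scales, for all 1920 peaks (grey) and the 9 peaks of ACLY, ACACA and SCD. The peaks of few reads follow a narrow line in which fold grows with reads, which follows from how the fold is computed at a low background. The SCD peak of 12 reads lies far under it at a fold of 4.71. The ACLY peak of 15 reads also lies under it, at 8.51.

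By likeness of the best peak, the genes nearest to each member were taken among those with the same number of peaks, by distance in log2 fold and log2 reads within this 1 library. For ACLY, among 35 genes, the nearest were MED15 (fold 6.38, 11 reads) and BICDL1 (10.6, 10 reads), at distances of 0.61 and 0.67. For ACACA there were 5 candidates, and the nearest were DHCR7, an enzyme of cholesterol synthesis, and FGF11, both with a fold of 5.61 on 5 reads at a distance of 0.073, then JUP (6.43, 6 reads). For SCD, whose best peak by fold is the one of 4 reads, they were LHX3 (4.67), ANKRD9 and KCTD17 (both 4.83), all on 4 reads among 162 candidates. The nearest gene to ACLY was farther from it than the nearest to ACACA or SCD, at 0.61 against 0.073 and 0.024. Few peaks are as deep as the ACLY one (9 of 1920 had 15 or more reads), and the candidate pools differ in size. The distances are therefore not read as a trait of ACLY.

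Other genes of the pathway were read from 6 lists, written with earlier results known. Of their 102 genes 13 had a peak (12.7%), and without ACLY, ACACA and SCD 10 of 99, beside 6.84% of protein-coding genes. Of 17 acetyl-CoA supply genes only ACLY had a peak (5.88%), near the 6.84% of all protein-coding genes. The other 16 had 0, which at that share is not read as a result. Those 16 include the citrate carrier gene SLC25A1, the acetyl-CoA synthetase gene ACSS2 and the malic enzyme gene ME1, which makes NADPH. Of 15 genes of malonyl-CoA and fatty acid synthesis and its control, ACACA and FASN had peaks. FASN had 23, with a best fold of 13.3 on 14 reads. ACACB, the mitochondrial-membrane isoform of the carboxylase, had 0.

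Of 22 genes of desaturation and elongation, SCD, HACD3 and CYB5A had peaks. HACD3, a dehydratase of the elongation cycle, had a fold of 4.91 on 4 reads, in the 5′ UTR class. CYB5A, the cytochrome b5 that passes electrons to desaturases, had 3.93 on 3 reads. The other desaturase genes on the list, SCD5, FADS1, FADS2, FADS3 and DEGS1, had 0 peaks. Among activation and esterification genes 1 of 20 had a peak, ACSL3 (4.32, 4 reads), an acyl-CoA synthetase. Among transport and beta-oxidation genes 1 of 16 was named, ACADVL (5.31, 5 reads), and its summit lies outside the gene. The shares of the activation list (5%) and the transport list (6.25%) are also near the 6.84% of all protein-coding genes.

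The SREBP and LXR control list had 5 of 12 genes with a peak. They were INSIG1 (5.70, 5 reads), which retains the SREBP complex in the endoplasmic reticulum, NR1H3 (LXR alpha) and MLXIPL (ChREBP), both 4.91 on 4 reads, SREBF2 (4.40, 15 reads over 3 control reads) and SCAP (2.99, 2 reads), the SREBP escort. SREBF1, the SREBP gene best known for driving ACLY, ACACA and SCD, had 0 peaks. Earlier results of these data were known when this list was written, so its share is not independent evidence. Most of these peaks rest on 5 or fewer reads, as do those of ACACA.

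**Figure D4:**
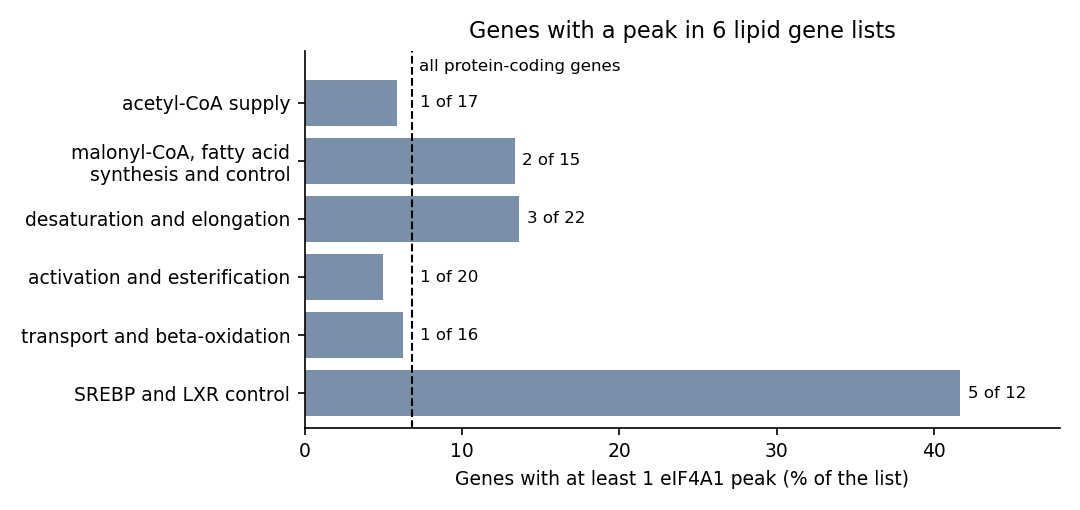
Share of genes with at least 1 eIF4A1 peak in each of 6 lipid gene lists (bars, in percent of the list, with counts), and the share of all protein-coding genes (dashed line, 6.84%). The acetyl-CoA supply list has 1 of 17 and the SREBP and LXR control list 5 of 12.

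Chromosome 17 had 174 peaks in all, 7 of them in ACLY and ACACA, and chromosome 10 had 81. The nearest peak outside ACLY was 54.0 kb away, listed under FKBP10 (fold 2.99, 2 reads), and on the other side 383 kb away under STAT3. Outside ACACA the nearest peak was 850 kb away, listed under NPEPPSP1. SCD had closer neighbours, the OLMALINC peak at 23.5 kb on one side and a peak listed under CWF19L1 (fold 3.96, 3 reads) at 101 kb on the other. Of the fixed markers of a prostate epithelial line, 1 of 8 had a peak (CD44, 3.92). KRT8, KRT18, EPCAM and CDH1 had 0, as did all 5 androgen-driven luminal markers, and VWF (2.99) was the only one of 5 blood and stromal markers with a peak. A peak over control is not an expression level, so these counts do not check the cell line.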

How the data were processed

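The authors deposited a peak track, filed under the IgG sample but naming the eIF4A1 library in each of 1920 peaks, and an annotated table of 1919 of them in 2051 rows. Per the narrowPeak column order in the file headers, the deposited values are a score, the fold over control (a linear ratio), and −log10 p and −log10 q. Per the submitters' processing notes, MACS2 and ChIPseeker were among the tools. Their versions, the filter behind the peak names and the library totals are not given in the sources used here.

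Rows were reduced to 1 per peak and joined by peak name, and coordinates are hg38, 1-based. In MACS2 the fold is (reads + 1) over (background + 1) and p is a Poisson tail, so reads and background were solved from both. All 1920 read numbers fell within 0.01 of a whole number, and 500 of 500 simulated peaks were recovered. The commonest background, 0.0176, was read as 1 control read within 1 kb for reads of 20 bases, the smallest peak width, so 1 control read at the summit weighs 0.880. Of 1606 backgrounds above the lowest value, 1594 (99.3%) were within 0.05 of whole multiples of this unit over 10 kb. Random values would give 10%, but backgrounds at the commonest value are whole multiples by construction, so 10% is too low a comparison. The unit is the same for any read length, so this does not test the 20 bases or the weight of 0.880. The background is the highest of several windows, so control reads are upper limits. Symbols and spans are RefSeq's (GRCh38.p14), and 3 of 3 genes matched.

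Each antibody has 1 library, so no test was run. The lists are acetyl-CoA supply, malonyl-CoA and fatty acid synthesis and its control, desaturation and elongation, activation and esterification, transport and beta-oxidation, SREBP and LXR control, and the markers. Members and lists were chosen with earlier results of these data known. The genes named are the 3 members, list genes with a peak (up to 6 a list), the 3 nearest genes per member and overlapping genes. A gene that this rule names is not reported here. OLMALINC, flanking genes and list genes without a peak were named after their values were seen. Alternatives were stricter peak thresholds, gene bodies, merged peaks and a raised background. Python 3.11.15, pandas 2.3.3, NumPy and SciPy 1.17.1 were used.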

Additional observations from a re-analysis of the deposited data

How the results depend on the processing

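Peak counts fell under stricter thresholds, since fewer peaks enter by construction. At a −log10 q of at least 5, 3 of the 9 peaks were left (ACLY 2, ACACA 1, SCD 0), covering 77, 137 and 0 bases, with a median fold of 7.86. With a fold of at least 5 there were 4 (ACACA 1, SCD 0), and with at least 5 reads 5 (ACACA 1, SCD 1). The promoter share was 0% at both the q and the fold threshold. ACLY had 3 peaks at a fold of at least 5 and with at least 5 reads. With the background raised to at least 1 control read, the median fold fell from 4.83 to 3.19, and the deepest ACLY and SCD peaks stayed at 8.51 and 4.71. For SREBP and LXR control the list count was 3 at the q threshold, 2 with at least 5 reads and 1 at the fold threshold. For desaturation and elongation it was 1, 1 and 0, and for activation and esterification 0, 0 and 0, in the same order. By gene body, with the summit or any base inside, activation and esterification had 2 genes, with LPIN1 added, and transport and beta-oxidation had 0, without ACADVL. Transport and beta-oxidation was also 0 at the q threshold. Of 71 alternative values 41 stayed within 1.5 times the reported value or, for the promoter share, within its interval. Merging near peaks changed none of the counts. Leaving out a replicate was not possible. No paired analysis was possible because there is only 1 library with each antibody.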
